A study of Mus musculus with 10 samples.

Results

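The comparison described here is that of colon tissue from Trp53 knockout (KO) mice with tissue from wild-type (WT) mice, taken after injury with dextran sodium sulfate (DSS), a polymer given in drinking water that damages the colon lining. Arrays were chosen by their titles: 4 of the 10 two-colour microarrays of the series carried tissue, and the other 6 carried colon organoids. By their titles the organoids were WT, Trp53 KO or Wnt-independent Trp53 KO. Each tissue array set 1 KO mouse against 1 WT mouse, so the arrays held 2 KO and 2 WT mice in 2 pairs, and each pair was hybridised on 2 arrays with the dyes exchanged. Ratios are given as KO over WT on the log2 scale, where 1 is a doubling, as the mean of a pair's 2 arrays and then of the 2 pairs. Of 14013 genes with a probe well above background, 12835 were tested and 1178 were left out because outlier spots left values missing.

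The KO mice came from a cross of Axin2CreERT2 with Trp53 fl/fl animals. In that cross tamoxifen activates a recombinase in cells that express Axin2, which then delete Trp53 and pass the deletion to their progeny. All mice were male, tamoxifen was injected into the peritoneum to induce the knockout, 2% DSS was given for 5 to 7 days, and tissue was collected 2 months after DSS. The labels do not say whether WT mice carried the recombinase or the floxed alleles or received tamoxifen, nor the animals' ages or which stretch of colon was taken. In 1 label the replicate number of the KO channel differed from the array's title and from the animal's own label, and the title was followed. The deletion starts in Axin2-expressing cells, so whole tissue also holds cells in which it was not induced.

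Trp53 encodes p53, a transcription factor that is stabilised by DNA damage and other stress and switches on genes for cell cycle arrest, repair and cell death. The colon epithelium is renewed from stem cells at the crypt base, whose daughters become absorptive colonocytes or secretory cells: goblet cells, which make mucus, enteroendocrine cells, which make hormones, and tuft cells. After DSS the lining is rebuilt from surviving crypts, and at the anal end it meets squamous epithelium, which is bounded by skeletal muscle of the sphincter and pelvic floor.

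All 4 tissue arrays lay on 1 slide read in 1 scan, separate from the organoid arrays. In each channel 45.9% to 54.7% of spots gave a signal well above background, no spot was saturated, and outlier spots made up 1.33% to 4.41% of spots. The median standard deviation (SD) between the dye-swapped arrays of a pair was 0.138 on the log2 scale, taken per single array. That between the pairs was 0.0946, taken on ratios that each averaged 2 arrays. The 2 values are thus on unlike footing, and the smaller one does not show that mice varied less than repeat arrays. Across genes, which are not independent replicates, the ratios of the 2 pairs correlated with r = 0.53. Brighter probes gave smaller ratios: the median size of the mean ratio was 0.207 for probes with a log2 intensity of 8 to 10 and 0.0422 for probes over 14, none of which was past 2-fold in both pairs. Xist, the marker of female cells, was not above background in the tissue of these male mice.

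The probe for the targeted gene read a stretch of Trp53 mRNA that lies, in mouse build mm9, at chr11:69403134-69403193 on the plus strand. Its sequence is shown because it decides what the array can say about the deletion, and the labels do not name the deleted exons.
Trp53 probe: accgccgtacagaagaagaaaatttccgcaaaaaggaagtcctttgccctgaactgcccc
The log2 intensity of this probe was 9.24 and 9.90 in KO mice 1 and 2 and 9.70 and 9.86 in WT mice 1 and 2. The KO and WT mice overlapped, with log2 KO over WT of -0.46 in pair 1 and 0.04 in pair 2 (mean -0.21, SE 0.17, n = 2 pairs; limma adjusted p = 0.62). The probe was also above background in all 4 KO channels. Bulk tissue cannot tell fewer cells of a type apart from less RNA per cell, here and in all that follows.

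With limma, 0 of 12835 genes (0.0%) passed an adjusted p of 0.05, the smallest adjusted p was 0.254, shared by 367 genes, and 1879 genes had an unadjusted p under 0.05. With median centring of each array in place of loess, limma called 866 genes, 523 higher and 343 lower in KO, and with the 4 arrays taken as independent it called 923. All values below are therefore descriptions of 2 pairs of mice and not calls. On all 4 arrays 2210 genes (17.2%) were higher in KO and 2106 (16.4%) lower; with median centring these counts were 933 and 1817. Both KO mice lay above both WT mice for 1871 genes (14.6%) and below them for 1818 (14.2%). Ratios past 2-fold were found for 604 genes in pair 1 and 250 in pair 2. Of the 96 genes past 2-fold in both pairs, 79 (0.616% of the genes tested) were higher in KO and 17 (0.132%) lower.

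**Figure D1:**
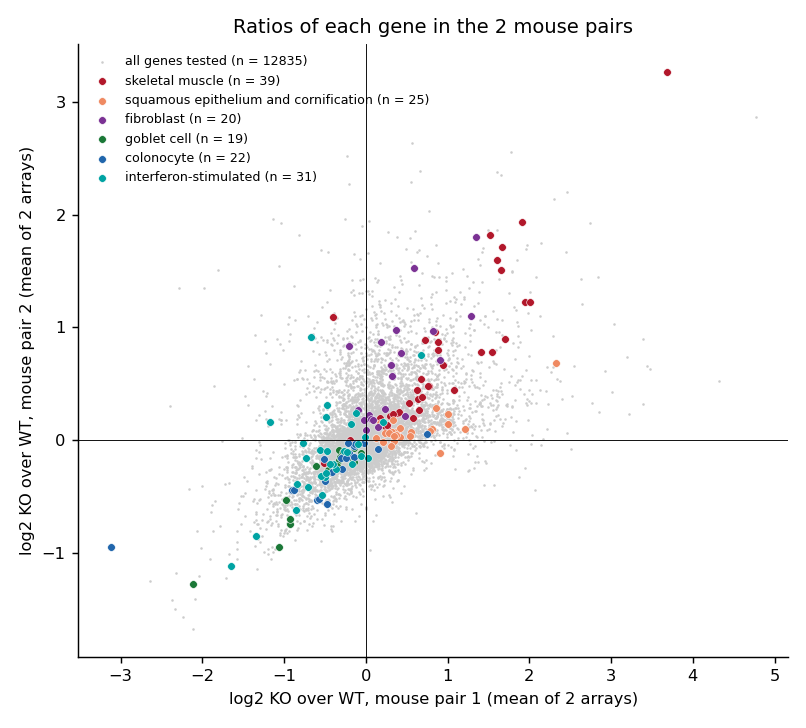
Log2 KO over WT of each gene in mouse pair 1 (horizontal axis) against mouse pair 2 (vertical axis), each the mean of 2 dye-swapped arrays; grey points are all 12835 genes tested and coloured points the members of 6 gene lists. Skeletal muscle genes reach furthest to the upper right and goblet cell genes lie to the lower left, and the horizontal spread is wider than the vertical.

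The 14 genes furthest above WT included some that encode proteins of the cornified layer of skin, some known from skeletal muscle and others of neither kind; of the 14, Mylk4 alone was on the skeletal muscle or squamous list. For 6 of the 14 the probe was above background in fewer than all 4 WT channels, so the size of their ratios is poorly fixed. Flg2, which encodes the keratin-binding protein filaggrin-2 of the cornified layer, had the highest mean ratio. Its log2 intensity was 11.94 and 11.19 in KO mice 1 and 2 against 7.16 and 8.33 in WT mice 1 and 2, and it was above background in only 2 of the 4 WT channels. Both KO mice lay above both WT mice, by a log2 ratio of 4.78 in pair 1 and 2.86 in pair 2 (mean 3.82, SE 0.59), sizes that rest on a WT signal near background. Hrnr, for the related protein hornerin, stood at 11.65 and 10.62 in the KO mice against 8.91 and 8.69 in the WT mice. Its mean ratio was 2.33 (SE 0.26). Dsc1, a desmosomal cadherin of the upper skin layers, had a ratio of 3.04 in pair 1 and 1.03 in pair 2, with 1 of 4 WT channels above background, and a mean of 3.58 in place of 2.03 from the scanner software's processed signals. Stfa1 and Stfa3, cysteine protease inhibitors of the stefin family, had mean ratios of 2.03 (SE 0.37) and 2.14 (SE 0.43). Wfdc21, a small secreted protein with a whey acidic protein domain, had a mean ratio of 2.33 (SE 0.10), and Sult1e1, the estrogen sulfotransferase, one of 2.22 (SE 0.08). For both of these genes the 4 arrays gave values between 1.93 and 2.98, and 1 sign on all 4 arrays was required by the rule that chose them.

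The wider list of squamous epithelium and cornification was positive in 25 of 25 tested genes, 14 of them on all 4 arrays, where 17.2% of all genes were. Its median was 0.23 against -0.0035 for all genes tested, with 0.37 in pair 1 and 0.07 in pair 2. Flg, the filaggrin gene, was the furthest at 2.33 in pair 1 and 0.69 in pair 2. Sprr1b, a cornified envelope precursor, was at 1.21 and 0.10, Lgals7, a galectin of stratified epithelia, at 1.01 and 0.23, and the desmosomal cadherin Dsg3 at 1.01 and 0.15. Pair 1 carried most of the difference in this list. These genes were measured in both genotypes, as the summed intensity of the 25 genes was 3000000 and 3050000 in KO mice 1 and 2 and 2370000 and 2930000 in WT mice 1 and 2. Of the 29 listed genes Ivl and Dsg1a were not above background. The median of the list was 0.05 without WT mouse 1 and 0.42 without WT mouse 2.

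Skeletal muscle genes stood above WT in both pairs. Of 39 tested, 37 were positive and 34 were positive on all 4 arrays, against 17.2% of all genes. Of the 39, 8 passed 2-fold in both pairs, where 0.616% of all genes did. This and the other lists were drawn up with earlier results of these data known, so their counts are not independent of the ratios. A count above the share of all genes is therefore no test. Mylk4, Unc45b, Tmem182, Klhl31 and Mettl21c, the last entries of the muscle list, are among the 8. The median of the skeletal muscle list was 0.61, with 0.69 in pair 1 and 0.48 in pair 2. Mylk4, a myosin light chain kinase family member, was furthest, at a log2 intensity of 10.89 and 12.23 in KO mice 1 and 2 against 7.20 and 8.96 in WT mice 1 and 2. Its mean ratio was 3.47 (SE 0.14), and the 4 arrays gave values between 2.96 and 3.91, but it was above background in 2 of 4 WT channels and the processed signals gave 4.34. Tmem182, a membrane protein of muscle, gave 1.91 in pair 1 and 1.93 in pair 2. Unc45b, a chaperone that folds myosin, gave 1.66 and 1.71, and Myf6, a transcription factor of the myogenic family, 1.52 and 1.82. Tnni1 and Tnnt1, the slow-muscle troponins, were the 2 negative members, at -0.36 and -0.10.

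The summed level of the muscle genes overlapped between the genotypes. Summed over the 39 genes, the intensity was 1600000 in KO mouse 1, 2190000 in KO mouse 2, 1280000 in WT mouse 1 and 1840000 in WT mouse 2. WT mouse 2 therefore lay above KO mouse 1, and both KO mice lay above both WT mice for 12 of the 39 genes, where 14.6% of all genes did. Without KO mouse 2 or WT mouse 1 the median of the list was 0.15 and 0.12, and without KO mouse 1 or WT mouse 2 it was 1.12 and 1.25. Within a pair the KO mouse was the higher one for the sum in both pairs. Of the defining markers, the fast myosin heavy chain Myh4 and the skeletal actin Acta1 were above background in every channel, while the slow myosin Myh7 was not above background.

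Further genes among the 14 highest were on neither list, and some of them are known from muscle. Vgll2, a cofactor of muscle transcription factors, had a ratio of 1.78 in pair 1 and 2.56 in pair 2, and was above background in 1 of 4 WT channels; its mean was 2.17, and 3.84 from the processed signals. Tmod4, which caps actin filaments in skeletal muscle, had ratios of 2.14 and 1.75, and Rxrg, a retinoid X receptor gene expressed in muscle, 1.65 and 2.35. Sim2, a transcription factor, had ratios of 2.44 and 1.67, and a mean of 2.05 that was 1.08 without WT mouse 1. Sema3d, a secreted guidance protein, was at 2.65 and 1.21, and Hoxc6, a positional homeobox gene, at 1.60 and 2.38. Hoxc6 was above background in 1 of 4 WT channels, and its mean of 1.99 was 3.71 from the processed signals. The rule that chose these 6 genes required the WT mouse to lie below the KO mouse on every array.

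Promoters are shown for 3 genes of the skeletal muscle list, as examples of muscle genes whose start regions hold a letter pattern bound by muscle transcription factors. The patterns searched on both strands were the myogenic E-box CAGCTG and a loose form of the MEF2 core, CTANNNNTAG, where N is any base. They were searched in the 250 bases before each transcription start in RefSeq of build GRCm38.p6. RefSeq listed promoters for 27 of the 39 tested muscle genes, and 15 of the 27 genes held CAGCTG, against 14.4% of the 10150 tested genes with a promoter. It was also held by 5 of the 9 lowest named genes with a promoter and by 3 of the 10 highest. The MEF2 core in this loose form was found in 2 of the 30 promoters of these muscle genes, against 2.69% of the promoters of all genes tested. A match describes the letters only. Capitals mark both patterns, and all stretches run 5′ to 3′ along the gene: Mylk4 at chr13:32783965-32784214 (minus strand), Tmem182 at chr1:40805351-40805600 (plus strand) and Klhl41, picked after its values were seen because it holds both patterns, at chr2:69669870-69670119 (plus strand).
Mylk4: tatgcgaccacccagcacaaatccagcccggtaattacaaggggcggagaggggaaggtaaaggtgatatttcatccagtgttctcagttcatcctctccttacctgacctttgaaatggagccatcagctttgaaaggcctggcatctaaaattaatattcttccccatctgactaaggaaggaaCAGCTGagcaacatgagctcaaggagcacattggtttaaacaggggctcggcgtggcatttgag
Tmem182: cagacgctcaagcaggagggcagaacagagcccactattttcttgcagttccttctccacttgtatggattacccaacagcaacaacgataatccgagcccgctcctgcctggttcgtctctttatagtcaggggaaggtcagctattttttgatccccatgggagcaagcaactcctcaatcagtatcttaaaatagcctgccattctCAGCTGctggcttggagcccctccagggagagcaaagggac
Klhl41: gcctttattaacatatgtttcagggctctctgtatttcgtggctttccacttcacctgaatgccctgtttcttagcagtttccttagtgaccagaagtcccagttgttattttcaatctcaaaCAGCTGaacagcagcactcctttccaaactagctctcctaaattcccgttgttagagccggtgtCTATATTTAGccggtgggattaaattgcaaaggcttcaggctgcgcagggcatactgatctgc
In Mylk4 the E-box began 64 bases before the start and in Tmem182 41 bases before it. Klhl41, which encodes a protein that stabilises muscle thin filaments, held an E-box 127 bases and a MEF2 core 63 bases before the start, and its ratio was 0.88 in pair 1 and 0.80 in pair 2.

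**Figure D2:**
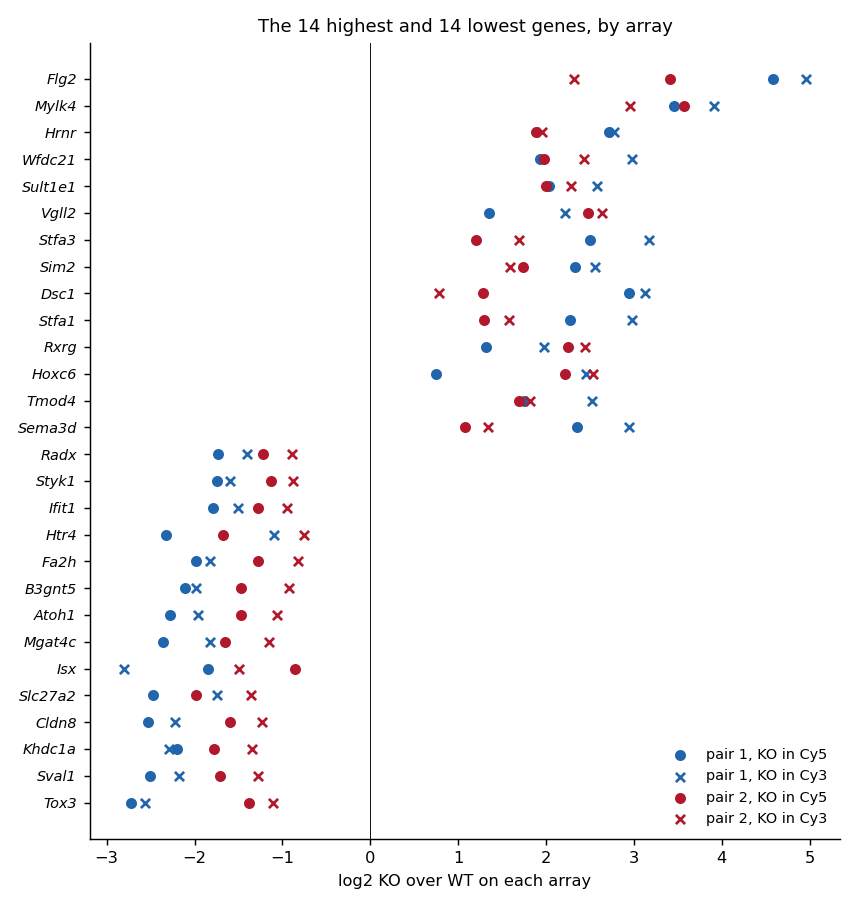
Log2 KO over WT on each of the 4 tissue arrays for the 14 highest and 14 lowest named genes that passed 2-fold in both pairs; blue is pair 1, red is pair 2, circles have KO in Cy5 and crosses KO in Cy3. By the rule that chose the genes, all points of a gene lie on 1 side of 0. For every gene on the lower side the mean of pair 1 lies further from 0 than that of pair 2.

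Connective tissue genes lay above WT as well. All 20 tested fibroblast genes were positive, 13 of them on all 4 arrays against 17.2% of all genes, and the median was 0.40, with 0.27 in pair 1 and 0.62 in pair 2. Lum, a proteoglycan that spaces collagen fibrils, had log2 intensities of 13.71 and 13.15 in KO mice 1 and 2 against 12.36 and 11.35 in WT mice 1 and 2. The KO mice lay above both WT mice, with a mean ratio of 1.58 (SE 0.15). Aspn, a related matrix proteoglycan, was at 1.28 and 1.10 in pairs 1 and 2. Pi16, a marker of adventitial fibroblasts, was at 0.59 and 1.52, and Fap, a surface protease of activated fibroblasts, at 0.82 and 0.97. The abundant fibrillar collagens stood near 0: Col1a1 was at 0.08 and Col3a1 at 0.05. Brighter probes gave smaller ratios in these data. The 12 fibroblast genes under a log2 intensity of 14 had a median of 0.64, and the other 8 were brighter.

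All 19 tested smooth muscle genes were positive and 13 were so on all 4 arrays, against 17.2% of all genes, but the sizes were small, with a median of 0.16 (0.26 in pair 1, 0.09 in pair 2). Casq2, a calcium store protein also of heart and slow skeletal muscle, was at 1.64 and 0.83, and Pln, which restrains the calcium pump, at 1.08 and 0.17. The median was 0.52 without KO mouse 2, 0.42 without WT mouse 1 and 0.051 without KO mouse 1. The abundant smooth muscle myosin Myh11 was at 0.09 and actin Actg2 at 0.12, both read from bright probes.

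Fat, mesothelium and glia gave smaller lists. Among 12 tested adipocyte genes 10 were positive, with a median of 0.49, which was -0.40 without KO mouse 2 and -0.04 without WT mouse 1. Adipoq, the fat hormone adiponectin, differed more between pairs than between genotypes: it stood at a log2 intensity of 9.13 in KO mouse 1 and 8.85 in WT mouse 1 and at 12.06 and 11.15 in KO mouse 2 and WT mouse 2. Of 5 tested mesothelial genes 4 were positive. Bnc1, a zinc finger protein of mesothelium and squamous cells, was at 1.37 and 0.69, while Muc16, a membrane mucin, was at -1.30 and -0.52. The 6 enteric glia genes had pair medians of 0.28 and 0.06. The 10 enteric neuron genes split evenly by sign, with pair medians of 0.20 and -0.19.

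Endothelial and immune lists differed by pair. Each pair had its own arrays, so a difference between pairs cannot be told apart from one between arrays. The 11 endothelial genes had a median of -0.05 in pair 1 and 0.67 in pair 2. Macrophage genes, 13 tested, had medians of -0.05 and 0.44, and T cell genes, 13 tested, -0.05 and 0.31. Without WT mouse 2 the medians were 0.09 for endothelium, -0.12 for macrophages and -0.16 for T cells. Adgre1, which encodes the macrophage surface protein F4/80, stood at a log2 intensity of 11.71 and 11.74 in the KO mice and 11.18 in WT mouse 1, while WT mouse 2 was low at 9.94. Its ratios were 0.54 and 1.79. The summed intensity of 6 mast cell genes separated the pairs and not the genotypes, at 58500 and 72600 in KO mouse 1 and WT mouse 1 against 5190 and 3760 in KO mouse 2 and WT mouse 2. B and plasma cell genes, 5 tested, had pair medians of -0.87 and 0.27.

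**Figure D3:**
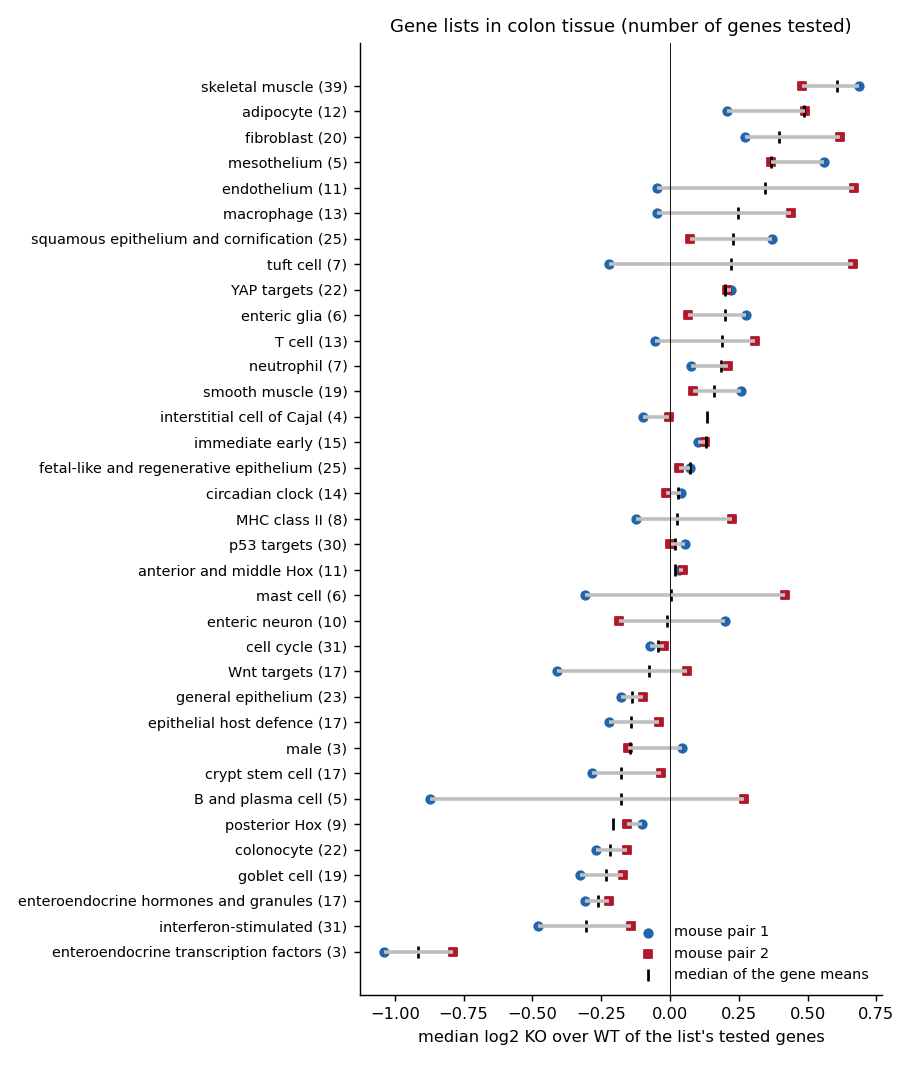
Median log2 KO over WT of the tested genes of each list with at least 3 such genes; blue circles give pair 1, red squares pair 2, black ticks the median of the gene means, and the number of genes stands after each name. Skeletal muscle, adipocyte, fibroblast and squamous lists lie right of 0 in both pairs, goblet cell, colonocyte, enteroendocrine and interferon lists left of 0 in both, and endothelium, macrophage, tuft, mast and Wnt lists cross 0.

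Most epithelial lists lay on the other side. Of 23 tested general epithelium genes 22 were negative, with a median of -0.14 (-0.18 in pair 1, -0.10 in pair 2). Cdx2, the homeobox factor that sets intestinal identity, was furthest from 0. Its log2 intensity was 12.22 and 11.71 in KO mice 1 and 2 against 13.42 and 12.67 in WT mice 1 and 2, and both KO mice were the lower ones (mean -1.08, SE 0.09). Cdx1, its paralog, was at only -0.16, and the adhesion protein Epcam at -0.09. Of the 23 genes, 18 were read from probes at a log2 intensity of 14 or more, where ratios were smaller. Tspan8, a tetraspanin, was at -0.62 and -0.25. The skeletal muscle, squamous and fibroblast lists, with medians of 0.61, 0.23 and 0.40, lay on the opposite side in the same mice, and their part in the epithelial values was not tested.

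Goblet cell genes were negative in 19 of 19 tested, 16 of them on all 4 arrays, where 16.4% of all genes were, and their median was -0.23 (-0.33 in pair 1, -0.17 in pair 2). Atoh1, the transcription factor that commits cells to the secretory lineage, was the lowest. It stood at 9.94 and 11.02 in KO mice 1 and 2 against 12.06 and 12.29 in WT mice 1 and 2, with the KO mice below both WT mice (mean -1.69, SE 0.27, 3.23-fold). Spdef, which drives goblet cell maturation, was at -0.93 and -0.74, Gcnt3, an enzyme that branches mucin sugars, at -1.06 and -0.95, and Rep15, a vesicle transport protein, at -0.93 and -0.70. The mucin Muc2 itself and the trefoil peptide Tff3, read from bright probes, were at -0.11 and -0.09. With probes under a log2 intensity of 14 the goblet list had a median of -0.75 over 9 genes, and without KO mouse 2 it was -0.36 over all 19.

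Colonocyte genes were negative in 20 of 22, 15 of them on all 4 arrays against 16.4% of all genes, with a median of -0.22. Slc9a3, the sodium-hydrogen exchanger of the brush border, was at -3.12 in pair 1 and -0.94 in pair 2. WT mouse 1 was the high one, at a log2 intensity of 12.14 against 8.68 in WT mouse 2, 9.02 in KO mouse 1 and 7.74 in KO mouse 2. Slc26a3, the chloride-bicarbonate exchanger, was even across pairs at -0.60 and -0.52. Atp12a, a proton-potassium pump, was at -0.90 and -0.44 and Fabp2, a fatty acid binding protein, at -0.88 and -0.44. Scnn1a, a subunit of the epithelial sodium channel, and Tmigd1 were the 2 positive members, at 0.04 and 0.40.

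Of 17 enteroendocrine hormone and granule genes 14 were negative, 9 of them on all 4 arrays against 16.4% of all genes, with a median of -0.26, or -0.16 without KO mouse 2. Gcg, which encodes glucagon-like peptides, had log2 intensities of 9.13 and 9.74 in KO mice 1 and 2 against 10.46 and 10.88 in WT mice 1 and 2. The groups did not overlap (mean -1.24, SE 0.09). Chga, a granule protein, was at -0.84 and -0.79, Insl5, a hormone of distal colon L cells, at -0.63 and -0.65, and Cck, cholecystokinin, at -0.46 and -0.30. The Insl5 values depended on the dye, at -0.07 and -0.27 with KO in Cy5 and -1.19 and -1.04 with KO in Cy3. Of 13 enteroendocrine transcription factors 3 could be tested and 9 were not above background. Neurod1 was at -1.08 and -0.94, above background in 1 of 4 KO channels, and Insm1 at -1.04 and -0.79, while Etv1 was at 1.57 and 0.00.

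Tuft cell genes, which mark chemosensory cells, did not lie with the other epithelial lists. Of 18 listed, 7 were tested and 9 were not above background, among them the defining markers Trpm5 and Il25. Of the 7, 5 were positive, 3 of them on all 4 arrays against 17.2% of all genes. The median was -0.22 in pair 1 and 0.66 in pair 2, and the median of 0.22 over both was -0.04 without WT mouse 2. Ptgs1, a cyclooxygenase, was at 0.41 and 0.79, Dclk1, a microtubule-linked kinase, at 0.15 and 0.80, and Alox5ap, which serves leukotriene synthesis, at 0.21 and 0.48. A further Dclk1 probe had a mean of -0.06, against 0.48 for the probe used. Dclk1 and Alox5ap were not detected in organoids.

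The lowest genes reached beyond these lists. Of the 14 lowest named genes 12 were detected in organoids, a share near the 88.2% of all genes tested, while 3 of the 14 highest were. Cldn8, a sealing claudin of tight junctions, stood at 10.82 and 11.50 in the KO mice against 13.20 and 12.92 in the WT mice (mean -1.90, SE 0.30). Sval1, a secreted protein, was at -2.34 and -1.49, Tox3, a nuclear protein of the HMG-box family, at -2.64 and -1.25, and Khdc1a at -2.24 and -1.56. In each of these genes both KO mice lay below both WT mice. Isx, a homeobox repressor of carotenoid uptake in gut epithelium, was at -2.33 and -1.17, with a mean of -1.75 that was -0.81 without WT mouse 1 and -2.69 without WT mouse 2. Slc27a2, which activates very long chain fatty acids, was at -2.11 and -1.67, and its mean of -1.89 was -2.46 from the processed signals. The lipid and sugar enzymes Fa2h, B3gnt5 and Mgat4c had means of -1.48, -1.62 and -1.75, and the serotonin receptor Htr4 one of -1.46. Styk1, a kinase-like membrane protein, had a mean of -1.34, and Radx, which binds single-stranded DNA at replication forks, one of -1.31. For 4 of the 14 lowest, Slc27a2, Mgat4c, Htr4 and Radx, the probe was above background in 3 of 4 KO channels. Of the 28 highest and lowest genes 8 had a further probe that could be read, and all 8 such probes had the same sign in both pairs. All 8 gave a smaller mean than the probe used. Flg2 was at 1.82 against 3.82, Dsc1 at 0.78 against 2.03, Mgat4c at -0.89 against -1.75 and Styk1 at -0.85 against -1.34. The closest was B3gnt5, at -1.59 against -1.62.

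Stem cell and Wnt genes gave a mixed picture. Of 17 tested crypt stem cell genes 13 were negative, with a median of -0.18, which was -0.64 without WT mouse 2 and near 0 without WT mouse 1. Sox9, a transcription factor of crypt progenitors, was at -1.05 and -0.82, Aqp4, a water channel, at -0.97 and -0.78, and Prom1, a membrane protein of progenitors, at -0.97 and -0.55. For Sox9 the genotypes overlapped, with KO mouse 1 at a log2 intensity of 10.22 and WT mouse 2 at 10.18. A further Aqp4 probe had a mean of -0.23, against -0.88 for the probe used. Lgr5, the receptor that marks crypt stem cells, had a log2 intensity of 11.11 in WT mouse 1 and 10.07, 8.82 and 8.65 in KO mouse 1, KO mouse 2 and WT mouse 2. Its ratios pointed in opposite directions, -1.04 and 0.18 (mean -0.43, SE 0.38), and without WT mouse 1 the value was 0.80. Axin2, a Wnt feedback gene and the driver of the recombinase, was at -0.46 and 0.11, and 0.39 without WT mouse 1. The 17 Wnt target genes had medians of -0.41 and 0.06 in the pairs. Ascl2, a stem cell transcription factor under Wnt control, was at -0.48 and -0.37 but its level differed more between the pairs, at 13.99 and 14.47 in pair 1 and 11.94 and 12.30 in pair 2.

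The p53 target genes lay on both sides of 0. Of 30 tested, 16 were positive and 14 negative, 6 and 7 of them on all 4 arrays, shares of the same order as the 17.2% and 16.4% of all genes. The median was 0.017, and -0.030 with median centring. Cdkn1a, the p21 inhibitor of cell division, had log2 intensities of 13.48 and 13.57 in the KO mice and 13.60 and 13.74 in the WT mice, a mean ratio of -0.14 (SE 0.06). Mdm2, the ligase that degrades p53, was at 0.02. The stress cytokine Gdf15 was at -0.56 and -0.38 and the carbonyl reductase Dcxr at -0.54 and -0.25. Sesn1 and Sesn2, sestrins that respond to stress, were on the other side, at 1.01 and 0.25 and at 0.54 and 0.17.

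Cell cycle genes stayed close to 0, with 21 of 31 negative and a median of -0.04. Mki67, the proliferation marker, was at 15.80 and 16.06 in the KO mice and 15.80 and 16.09 in the WT mice. The furthest, Kif11, a spindle motor, was at -0.59 and -0.22. Fetal-like and regenerative epithelium genes, a programme seen in healing gut, had 16 of 25 positive and a median of 0.07. Their markers Ly6a and Clu were at -0.09 and 0.05, from bright probes. Gja1, a gap junction protein, was at 1.98 and 0.18, Ereg, a ligand of the EGF receptor, at 1.14 and 0.40, and Il33, an alarmin, at 0.97 and 0.17. A further Il33 probe had a mean of 0.02, against 0.57 for the probe used, and was not positive in both pairs. Of 22 targets of YAP, the effector of the Hippo pathway, 17 were positive, 12 on all 4 arrays against 17.2% of all genes, with a median of 0.20, or 0.31 without KO mouse 2. Fjx1, a secreted regulator, was at 1.59 and 0.68, Ccdc80, a matrix protein, at 0.48 and 1.69, the transcription factor Foxf2 at 0.87 and 0.49 and the Hippo kinase Lats2 at 0.58 and 0.60. Ccdc80 and Foxf2 are also expressed by fibroblasts, and the part of those cells in the list was not tested.

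Interferon-stimulated genes lay below WT. Of 31 tested 26 were negative, 17 of them on all 4 arrays against 16.4% of all genes, with a median of -0.31 (-0.48 in pair 1, -0.14 in pair 2); it was -0.18 without KO mouse 1 and -0.14 without WT mouse 1. Ifit1, which binds viral RNA, had log2 intensities of 8.55 and 8.85 in the KO mice against 10.20 and 9.97 in the WT mice. Both KO mice were lower, with a mean of -1.38 (SE 0.18, 2.61-fold). Ddx60, a helicase of antiviral defence, was at -1.34 and -0.85 and the RNA sensor Ifih1 at -0.86 and -0.62. A further Ifih1 probe had a mean of -0.15, against -0.74 for the probe used, and was not negative in both pairs. Ifi27l2a stood apart from the list at 0.67 and 0.76.

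Epithelial host defence genes were set by the pair more than by the genotype. Reg3g, an antibacterial lectin, had log2 intensities of 14.19 and 14.90 in KO mouse 1 and WT mouse 1 but 7.57 and 8.31 in KO mouse 2 and WT mouse 2. Within the pairs its ratios were -0.70 and -0.74, the second with a weak signal, since 2 of 4 KO channels were above background. Nos2, the inducible nitric oxide synthase, was at -1.88 and -0.80, and the neutrophil chemokine Cxcl5 at 0.60 and 0.23. Of 17 tested genes 11 were negative, with a median of -0.14, which was 0.06 without KO mouse 2 and 0.04 without WT mouse 1.

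Opposite directions in the 2 pairs at over 2-fold, with 1 sign on both arrays of each pair, were found for 7 genes, all of them lower in KO in pair 1 and higher in pair 2. Il6, an inflammatory cytokine, was at -1.14 and 1.96, and Mmp3, a matrix protease, at -1.03 and 1.92. Spp1, a secreted phosphoprotein of macrophages and epithelium, was at -1.81 and 1.51. The chemokine Ccl24 was at -1.98 and 1.35 and Il22ra2, the soluble inhibitor of interleukin-22, at -2.29 and 1.35. For Spp1 the level was 13.24 in WT mouse 1 and 8.63 in WT mouse 2, with the KO mice between them at 11.43 and 10.14. For Mmp3 the KO mice were the ones far apart, at 10.12 and 12.88 against 11.15 and 10.96 in the WT mice. No gene was over 2-fold higher in pair 1 and over 2-fold lower in pair 2.

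Immediate early, clock and Hox genes were read as 3 further lists of general regulators. Of 15 immediate early genes 11 were positive (median 0.13), with Egr3, a growth-response factor, furthest at 2.02 and 0.98. Clock genes had a median of 0.03, with the output factor Dbp at 0.17 and 0.55. Of 9 tested genes on the posterior Hox list, drawn up for the hind end of the body axis, 7 were negative. Hoxb9 was at -0.73 and -0.52 and Hoxa13 at -0.50 and -0.55, while Hoxa11 and Hoxd8 were at 0.62 and 0.61. By its number Hoxd8 is a middle Hox gene, although it was counted with the posterior list. On the list of anterior and middle Hox genes, Hoxa3 was at -0.86 and Hoxc6, given above, at 1.99.

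Genes were also split by whether organoids, the epithelial cultures of the same series, had them above background in all channels of 1 organoid group or more. The organoid groups were WT, Trp53 KO and Wnt-independent Trp53 KO, so a gene detected in the KO groups alone also counted as detected. Of the 12835 genes 1516 were not detected in organoids. Their median tissue ratio was 0.34 (0.27 in pair 1, 0.34 in pair 2), and 81.9% of them were positive. The 11319 genes detected in organoids had a median of -0.01, and 44.4% were positive. Positive values on all 4 arrays were found for 46.0% of the genes not detected and 13.4% of the genes detected. Among the 79 genes over 2-fold higher, 55 were not detected in organoids, and among the 17 over 2-fold lower, 3 were not. The genes not detected in organoids were dimmer, with a median log2 intensity of 9.37 against 12.3. Among probes under a log2 intensity of 12 the medians of the ratios were 0.34 and -0.04, and the classes there still differed in brightness, at 9.10 and 10.2; the part of brightness was not tested.

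**Figure D4:**
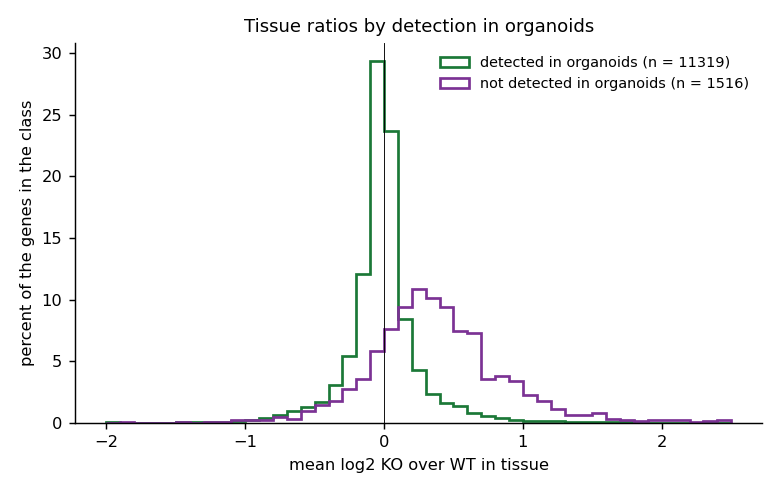
Distribution of the mean log2 KO over WT in tissue for genes detected (green) and not detected (purple) in organoids, as percent of each class in bins of equal width, with the few values beyond the plotted range counted in the end bins. The purple curve peaks to the right of 0 (median 0.34) and the green one at 0 (median -0.01).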

How the data were processed

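RNA of 4 colon tissue arrays was analysed. Per the file headers, the authors scanned Agilent design 074809 arrays with Feature Extraction 12.2.0.7 (protocol GE2_1200_Dec17; probe positions in build mm9) and deposited spot intensities (mean, background and processed signals) and flags. The authors' deposited value table holds log2 ratios of Cy5 over Cy3, which matched the processed ratios on every array (r of 0.995 to 0.998, slope 0.992 to 1.00, median near 0); per the submitters' processing notes limma was used, with settings not given in the sources used here.

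Intensities were corrected with limma 3.58.1 in R 4.3.3 (normexp, offset 50, then loess within arrays), without 3671 control spots of 62976 and without outlier spots. Levels by mouse came from Aquantile normalization between arrays. Of 56605 probes, 35491 were named by accession, 9062 by symbol and 22 by synonym through RefSeq (GRCm38.p6, names only). A gene was read from its brightest probe if well above background in all channels of 1 genotype. Dye swaps were averaged and the 2 pair ratios tested against 0 with limma (lmFit, eBayes, Benjamini-Hochberg). The number of arrays limits the precision. SE is limma's moderated standard error over the 2 pairs. The code was tested on simulated data.

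Named genes were up to 14 per direction over 2-fold in both pairs with 1 sign on all 4 arrays, up to 4 per gene list with 1 sign on all 4 arrays, 8 fixed genes, and up to 6 per direction with opposite pairs. Genes named as the exceptions in a count, as reference members of a list or for their promoters were chosen after their values were seen. The members and the 36 lists were chosen with earlier results of these data known. Alternatives changed the background correction, normalization, filter, probe rule, outlier spots, model and mice.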

Additional observations from a re-analysis of the deposited data

How the results depend on the processing

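limma called 0 genes under every alternative that gives a test except median centring (866 genes) and the 4 arrays taken as independent (923). With the scanner software's processed signals 125 genes were over 2-fold higher in both pairs and 60 lower, and the authors' log2 ratios gave 143 and 57, against 79 and 17; with median centring 31 were lower. On all 4 arrays 933 genes were then higher, against 2210. With probes under a log2 intensity of 14 goblet cell genes had a median of -0.75, colonocyte genes -0.54, general epithelium genes -0.26, skeletal muscle genes 1.06, smooth muscle genes 0.35 and squamous genes 0.58, and colonocyte genes stood at -0.34 as means over probes. The p53 targets were at -0.030 with median centring, which also turned the near-zero medians of the clock, mast cell, MHC class II and anterior and middle Hox lists. The cause of these shifts was not tested. Of 350 list medians under alternatives that kept all mice, 335 had the main direction; of 210 without a mouse or pair, 171 did, and 16 of 35 lists turned in at least 1. Among 348 values of named genes with all mice kept, 25 moved by more than the SD between pairs; from the processed signals these included Dsc1 (2.03 to 3.58), Hoxc6 (1.99 to 3.71), Vgll2 (2.17 to 3.84), Mylk4 (3.47 to 4.34), Wfdc21 (2.33 to 3.13) and Htr4 (-1.46 to -2.15). With 1 pair only, 233 and 414 genes were over 2-fold higher, 17 and 190 lower, 3799 and 3910 higher on both arrays and 3258 and 4575 lower, where fewer arrays must share a sign. Leaving out each mouse or pair, medians ranged from 0.12 to 1.25 for skeletal muscle, 0.05 to 0.42 for squamous, 0.27 to 0.62 for fibroblast, 0.051 to 0.52 for smooth muscle, -0.18 to -0.10 for general epithelium, -0.36 to -0.17 for goblet cell, -0.29 to -0.15 for colonocyte, -0.32 to -0.16 for enteroendocrine and -0.038 to 0.095 for p53 target genes. With 1 mouse left in a genotype, that mouse is assumed to vary like the other genotype. The main fit pairs the mice; without the pairing (no replicate block, separate channels) limma called 0 genes and 754 had an unadjusted p under 0.05, against 1879. With 2 pairs the test has 1 residual degree of freedom, and dim or very bright probes limit the ratios.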

Other observations

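Genes near Trp53 on chromosome 11 (build mm9) were looked at separately. Within 2 Mb of the probe 104 genes were tested, with a median log2 KO over WT of 0.0055. Of these, 16 were higher and 11 lower on all 4 arrays, where 17.2% and 16.4% of all genes were. The lowest was Mfsd6l at -0.69 and the highest Dhrs7c, which encodes a reductase of muscle, at 1.28.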
